A study of Homo sapiens with 4 samples.

Results

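The nuclear genes that build the mitochondrial ribosome, the respiratory chain and the protein import machinery were picked by gene symbol alone from a table of 9885 genes of HeyA8 ovarian cancer cells. Symbols that begin with MRPL, MRPS, NDUF, SDHA to SDHD, UQCR, COX or COA followed by a digit, ATP5, TIMM or TOMM were taken, which gave 151 genes. Of these, 146 are annotated as protein-coding and 5 are pseudogenes or long noncoding RNAs that carry such a symbol. RNA-seq had been done on 4 lines with 1 library each: A8, the parental HEY-derived HeyA8 line, A8i, its derivative in which ECM1 was stably silenced with short hairpin RNAs, and A8i-A and A8i-B, derived from A8i by stable expression of ECM1a or ECM1b from HA-tagged cDNAs. All share the HeyA8 background, A8i-A and A8i-B also carry the silencing, and no line with a control hairpin or an empty vector is part of the series. A difference between lines is therefore a difference between 2 libraries, with no replicate check, and no test of conditions was made.

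Each value is a whole number of events that a library holds for a gene, from 0 to 32 over the table. The sources used here do not state which kind of event was counted, so these numbers are neither read counts nor expression levels. Over the table, A8 held 24513 events, A8i 20535, A8i-A 22691 and A8i-B 24236, which leaves A8i the lowest. ECM1 itself, the silenced gene, had 2 events in each of the 4 lines, which checks nothing about its level. Of the markers chosen for an epithelial ovarian cancer line, KRT8 (7, 5, 5 and 6 events in A8, A8i, A8i-A and A8i-B) and PAX8 (11, 7, 7 and 7) had events in every line. So had KRT7 (1, 2, 1 and 1), KRT18 (1 in each), MSLN (2, 1, 2 and 3) and VIM (3, 1, 3 and 2). EPCAM was listed at 0 in all 4, and CDH1, MUC16 and WFDC2 were not among the listed genes. Of the markers of other cell types, COL1A1 had 1, 0, 1 and 1, and PTPRC, CD3E and PECAM1 were not listed. Event numbers therefore cannot check the cell type. In what follows, 4 numbers in a row always stand for A8, A8i, A8i-A and A8i-B in that order.

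Mitochondria keep their own ribosomes, which translate the few respiratory chain subunits that the mitochondrial genome encodes. The ribosomal proteins themselves, most subunits of complexes I, III, IV and V, all subunits of complex II and all assembly factors are encoded in the nucleus, made in the cytosol and brought in through the TOM and TIM translocases of the outer and inner membrane. Complexes I to IV pass electrons from NADH and succinate to oxygen, and ATP synthase uses the proton gradient so formed. Many of these nuclear genes are known to be controlled by NRF1, ETS family factors such as GABPA, and YY1.

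The group as a whole differed little between the lines. For the 151 genes together, A8 held 353 events (95% exact Poisson interval 317–392), A8i 322 (288–359), A8i-A 328 (293–365) and A8i-B 347 (311–386), and the 4 intervals overlap. As shares of each line's events these sums came to 1.44% for A8, 1.57% for A8i, 1.45% for A8i-A and 1.43% for A8i-B, with 95% exact Clopper-Pearson intervals from 1.29–1.60% in A8 to 1.40–1.75% in A8i. The share was thus highest in the line with the lowest total, within overlapping intervals that cover counting error only. A member had 2.24 events per line on average and a median of 2 in each line, and the highest single value was 15.

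After silencing, the members' sum in A8i was 91.2% of that in A8 (78.2–106%), while the sum over the whole table was 83.8% (82.2–85.3%). Relative to A8i, the members stood at 102% in A8i-A (87.1–119%) and at 108% in A8i-B (92.3–126%), against 110% (108–113%) and 118% (116–120%) for the table. Between the isoform lines, the members of A8i-A had 94.5% of the events of A8i-B (81.0–110%), with 93.6% for the table (91.9–95.3%). Each interval of the members spans 100% and the value of the table. These intervals treat events as independent, which was not tested, so no departure of the members from the table is claimed. The median log2 ratio of (events + 1) was 0.00 over the members and over the table in all 4 comparisons. Of the 151 members, 77 had the same number in A8i as in A8, 31 had more and 43 had fewer. These are 51.0%, 20.5% and 28.5% of the members, and 41.7%, 19.7% and 38.5% of all genes.

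A gene was counted as past the fold where the ratio of (events + 1) between 2 lines was at least 2, a rule that 0 against 1 event already meets. In A8i, 13 members were past the fold upwards from A8 (8.61% of 151, with 8.62% of all genes) and 21 downwards (13.9%, with 20.2% of all genes). In A8i-A, 18 were higher than in A8i (11.9%, with 18.1% of all genes) and 16 lower (10.6%, with 11.1%). In A8i-B, 20 were higher than in A8i (13.2%, with 20.4% of all genes) and 11 lower (7.28%, with 9.21%). Between A8i-A and A8i-B, 11 were higher in A8i-A (7.28%, with 11.7% of all genes) and 16 lower (10.6%, with 16.2%). By this rule the members' shares lay at or below those of the table in all 8 counts. With a difference of at least 2 events also required, they lay above the table in 2, at 4.64% against 3.46% for higher in A8i than in A8, and at 7.28% against 4.82% for lower in A8i-A than in A8i. Differences of a single event made up 6 of the 13 and 10 of the 21 in A8i against A8.

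The split between higher and lower depended on whether the libraries were scaled to the same total, in the members as in the whole table. With scaling, the 13 higher and 21 lower members of A8i against A8 became 13 and 5, and the 18 and 16 of A8i-A against A8i became 13 and 16. Likewise, the 20 and 11 of A8i-B against A8i became 5 and 11, and the 11 and 16 of A8i-A against A8i-B became 11 and 3. Over all genes, the 852 higher and 2000 lower in A8i against A8 became 885 and 709, which is 8.95% and 7.17%, with 8.61% and 3.31% for the members. For A8i-A against A8i the scaled shares were 15.5% and 11.1% of all genes, with 8.61% and 10.6% of the members. For A8i-B against A8i they were 7.32% and 9.50%, with 3.31% and 7.28% of the members. For A8i-A against A8i-B they were 11.7% and 5.56%, with 7.28% and 1.99% of the members. For none of the 151 members did the 95% exact interval of the ratio between 2 lines lie off 1, in any of the 4 comparisons. Of the 9885 genes, it lay off 1 for 45 (0.455%) for A8i against A8 and 44 (0.445%) for A8i-A against A8i. For A8i-B against A8i these were 53 (0.536%), and for A8i-A against A8i-B 38 (0.384%). Members with few events could not lie off 1. Even 0 against 5 events, as in NDUFS1, leaves equal numbers inside the interval. Statements on single genes below are therefore descriptions of these libraries. The 3 comparisons that involve A8i share that library.

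**Figure D1:**
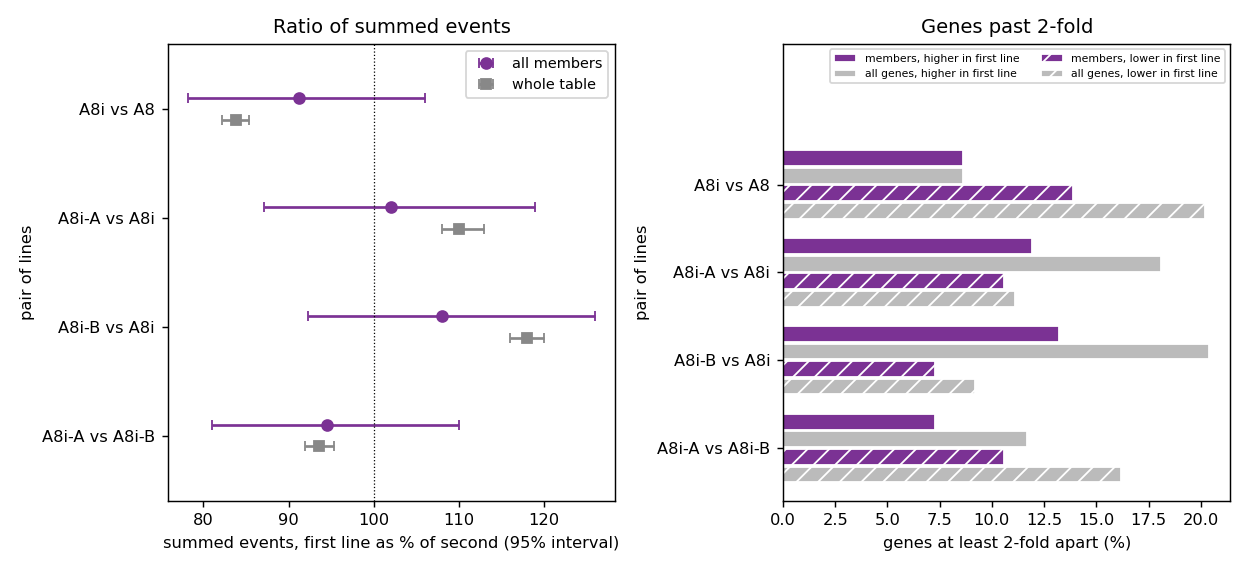
Left, events summed over the 151 members (circles) and over the whole table (squares) in the first line of each pair as a percentage of the second, with 95% exact intervals for counting error; right, the percentage of members and of all genes at least 2-fold higher or lower in the first line. The members' intervals span 100% in all 4 pairs, and the members' bars are as long as or shorter than those of all genes.

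A larger share of the members than of all genes had events in every line. A8 had at least 1 event for 135 members (89.4%, with 82.2% of all genes), A8i for 131 (86.8%, with 73.7%), A8i-A for 133 (88.1%, with 78.9%) and A8i-B for 137 (90.7%, with 81.6%). In all 4 lines an event was listed for 118 members (78.1%), and for 60.6% of all genes. TIMM13, which encodes a chaperone of the intermembrane space, was the 1 member at 0 in every line, against 1.69% of all genes. With A8i left out, 124 members (82.1%) and 66.1% of all genes had an event in each of the remaining 3 lines.

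In 43 members (28.5%) the number of events was identical in the 4 lines, as it was in 15.3% of all genes. The difference was widest among genes with few events. With 1–4 events over the 4 lines, 26 of 55 members (47.3%) and 20.7% of all genes had the same number throughout. With 5–8 events this held for 11 of 44 members (25.0%) and 13.7% of all genes, with 9–16 for 4 of 29 (13.8%) and 8.10%, and with 17 or more for 1 of 22 (4.55%) and 4.99%. MRPL28, with 5 events in every line, and MRPL11 and ATP5G1, with 4 in every line, were the richest of these even genes. Leaving out A8i gave 59 members (39.1%) and 24.0% of all genes with the same number in the other 3 lines. Identical numbers need a sum that 4 divides, so in the class of 1–4 events only a sum of 4 can be even. Events in 1 line only were listed for 7.95% of members and 14.1% of all genes, so the mix of sums in that class may differ between them. The shares of even genes are descriptions, and whether the evenness goes with the members' shorter genes was not tested.

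**Figure D2:**
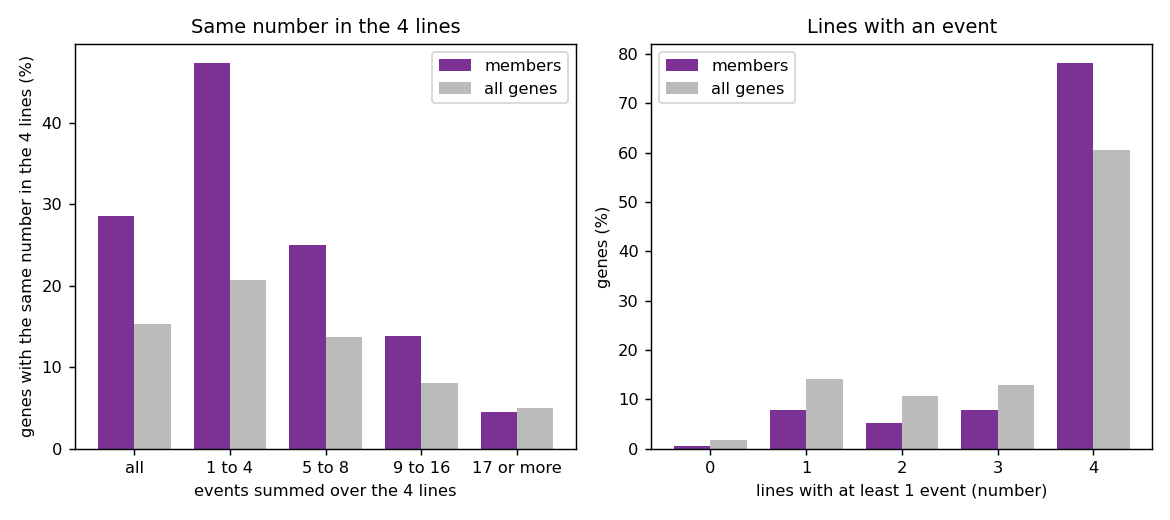
Left, the percentage of genes with the same number of events in all 4 lines, for all genes and by the events summed over the lines; right, the percentage of genes by the number of lines with at least 1 event, for the 151 members and all 9885 genes. The members' bars are higher for identical numbers in each class up to 16 events and for events in all 4 lines (78.1% and 60.6%).

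A8 was above each of the other lines for 14 members (9.27%, with 16.6% of all genes), A8i for 19 (12.6%, with 8.87%), A8i-A for 14 (9.27%, with 12.6%) and A8i-B for 15 (9.93%, with 16.2%). A8 was below each of the others for 8 members (5.30%, with 6.02% of all genes), A8i for 18 (11.9%, with 14.6%), A8i-A for 12 (7.95%, with 9.07%) and A8i-B for 6 (3.97%, with 6.17%). A8i was thus the line in which members were most often highest and most often lowest. Over all genes, A8 was most often highest and A8i most often lowest. Most of the members' gaps in A8i were of 1 event. Of the 19 highest there, only NDUFS4, SDHAP1 and ATP5D led by more. Of the 18 lowest, only MRPL43, MRPL55, MRPL22 and NDUFAF5 lay lower by more. The 19 include SDHAP1, SDHAP2 and COX10-AS1, which code for no protein. The contrast with all genes was not tested.

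Among the proteins of the large ribosomal subunit, sums over the 34 MRPL genes were 78, 70, 75 and 83 events. MRPL55 (chr1:228294380-228297013, minus strand, GRCh37) had more events than any other member, with 12, 9, 15 and 13, and is annotated with 34 transcripts of at most 6 exons in a span of 2634 bases. The ratio of A8i-A to A8i was 1.67 there (0.683–4.32). MRPL52 had 5, 8, 7 and 7 events and was lowest in the parental line. MRPL43 had 6, 2, 5 and 6, so that A8i stood below the other lines, at 0.333 of A8 (0.0329–1.86). MRPL22 had the same shape at lower numbers, with 3, 1, 3 and 3. MRPL21, in contrast, had 2, 2, 2 and 5, with A8i-B on its own, and MRPL42 had 2, 4, 1 and 3. The even genes were frequent in this group, where 13 of 34 had the same number in every line.

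The 16 genes grouped by their MRPS symbol alone as the small subunit summed to 35, 37, 39 and 39 events. MRPS18C (5, 6, 6 and 5) and MRPS28 (5, 4, 5 and 4) had the most events, and their lines were within 1 event of each other. MRPS25 (1, 3, 2 and 4 events) and MRPS5 (1, 3, 2 and 2) were past the fold in A8i against A8 and lowest in the parental line. The 3 other genes of this group past the fold had at most 2 events in any line. MRPS27 had 2, 2, 0 and 2 events, MRPS33 had 0, 0, 2 and 0, and MRPS14 had 0, 0, 2 and 1. In these 3 genes A8i-A was the line that stood apart, downwards in MRPS27 and upwards in MRPS33 and MRPS14, and their values lie under the 3 events that a value of 0 allows, so no fold is given.

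The 28 genes of complex I subunits, the NADH dehydrogenase that opens the chain, summed to 66, 64, 53 and 62 events. NDUFV1, which encodes the subunit that binds NADH and FMN, had 7, 10, 9 and 7. NDUFS1 (chr2:206979541-207024233, minus strand, GRCh37), which encodes the largest iron-sulfur subunit, had 3, 5, 0 and 4. It was listed at 0 in A8i-A alone. With 0 read as 3 events and the other counts taken as exact, it would lie 1.67-fold below A8i and 1.33-fold below A8i-B. The exact intervals of both ratios include equal numbers, so a lower number in A8i-A is not established. NDUFV3, an accessory subunit, had 2, 5, 2 and 5, so that A8 and A8i-A shared the low number and A8i and A8i-B the high one, with a ratio of A8i-A to A8i of 0.400 (0.0381–2.44). NDUFS4, an assembly-critical accessory subunit, had 2, 5, 2 and 2, with A8i on its own. NDUFA3 had 8, 4, 5 and 5 and NDUFB5 had 7, 3, 4 and 6, both highest in A8. NDUFA9, whose product lies at the junction of the arms of the complex, had 1, 0, 1 and 2.

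Factors that assemble complex I had the most events per gene of the 12 role groups, 3.78 per gene and line over 8 genes, and none of the 8 had the same number in every line. Their sums were 29, 28, 27 and 37. NDUFAF6 had 11, 7, 7 and 13 events, and the ratio of A8i-B to A8i was 1.86 (0.689–5.50). TIMMDC1, named like an import gene but a complex I assembly factor of the inner membrane, had 7, 5, 9 and 4, with A8i-A at 2.25 times A8i-B (0.628–10.00). NDUFAF5, a hydroxylase of the NDUFS7 subunit, had 4, 2, 4 and 6. NDUFAF1 had 0, 3, 0 and 2 and NDUFAF4 had 0, 2, 1 and 1, so the parental line was at 0 in both.

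Complex II, succinate dehydrogenase, was represented by SDHA, SDHB, SDHC, SDHD and 3 assembly factors, with sums of 19, 17, 17 and 16. SDHAF2, which is needed to attach FAD to SDHA, had 4, 6, 6 and 6 events, and SDHC, a membrane anchor, had 5, 5, 3 and 5. SDHA, the flavoprotein, had 3, 3, 3 and 1, while SDHAF3 had 3, 1, 1 and 1. The sums of the 6 UQCR genes of complex III were 15, 9, 12 and 11. UQCRB, which encodes a small subunit of the ubiquinone-binding complex, had 6, 2, 2 and 2 and accounted for 4 of the net 6 events by which A8i was below A8, at a ratio of 0.333 (0.0329–1.86). UQCRH had 2 events in every line.

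Complex IV, cytochrome c oxidase, had 7 subunit genes with sums of 20, 19, 15 and 20. COX4I1, the main isoform of the regulatory subunit IV, had 7, 7, 5 and 5, COX7C had 3, 5, 3 and 5, COX7A2 had 4, 2, 2 and 5, and COX5A had 3 in every line. The 10 genes for complex IV assembly summed to 25, 16, 30 and 18, and their sum in A8i-A was 188% of that in A8i (99.0–368%). COA1 (chr7:43648055-43769316, minus strand, GRCh37), which takes part in an early step of the assembly of subunit COX1, had 14, 7, 15 and 7. A8 and A8i-A were level at about the same high number and A8i and A8i-B at the same low one, at a ratio of A8i-A to A8i of 2.14 (0.822–6.21). Without COA1 the other 9 genes summed to 11, 9, 15 and 11, so COA1 carried 8 of the net 14 events by which A8i-A exceeded A8i. COX18, an insertase for subunit COX2, had 1, 1, 3 and 2, and COX15, which makes heme A, had 2, 0, 1 and 1.

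The 16 genes of ATP synthase showed the flattest sums, 31, 32, 31 and 32, and 7 of them had the same number in every line. ATP5B, the catalytic beta subunit, had 7, 4, 4 and 6. Of the genes for the c subunit of the rotor, ATP5G1 had 4 in every line and ATP5G2 had 1, 1, 4 and 1. No 50-base stretch was shared between the annotated transcripts of ATP5G1, ATP5G2 and ATP5G3. ATP5D, the delta subunit, had 2, 4, 1 and 2, and ATP5C1, the gamma subunit, had 3 in every line.

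Import genes had the fewest events per gene, 1.57 per gene and line over 10 TIMM genes and 1.31 over 4 TOMM genes. TIMM sums were 15, 14, 17 and 17. TIMM9, a small chaperone of the intermembrane space, had 2, 2, 5 and 4, and TIMM17B, a subunit of the TIM23 channel, had 2, 1, 4 and 4, so both were higher in A8i-A and A8i-B than in A8 and A8i. TIMM23B had 1, 1, 2 and 2 and is uncertain, because 61.4% of the 50-base windows of its transcripts also occur in TIMM23. TOMM sums were 7, 3, 5 and 6. TOMM40, the pore of the outer membrane translocase, had 3, 1, 1 and 1, TOMM40L had 1, 0, 1 and 2, and TOMM7 had 2 in every line.

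**Figure D3:**
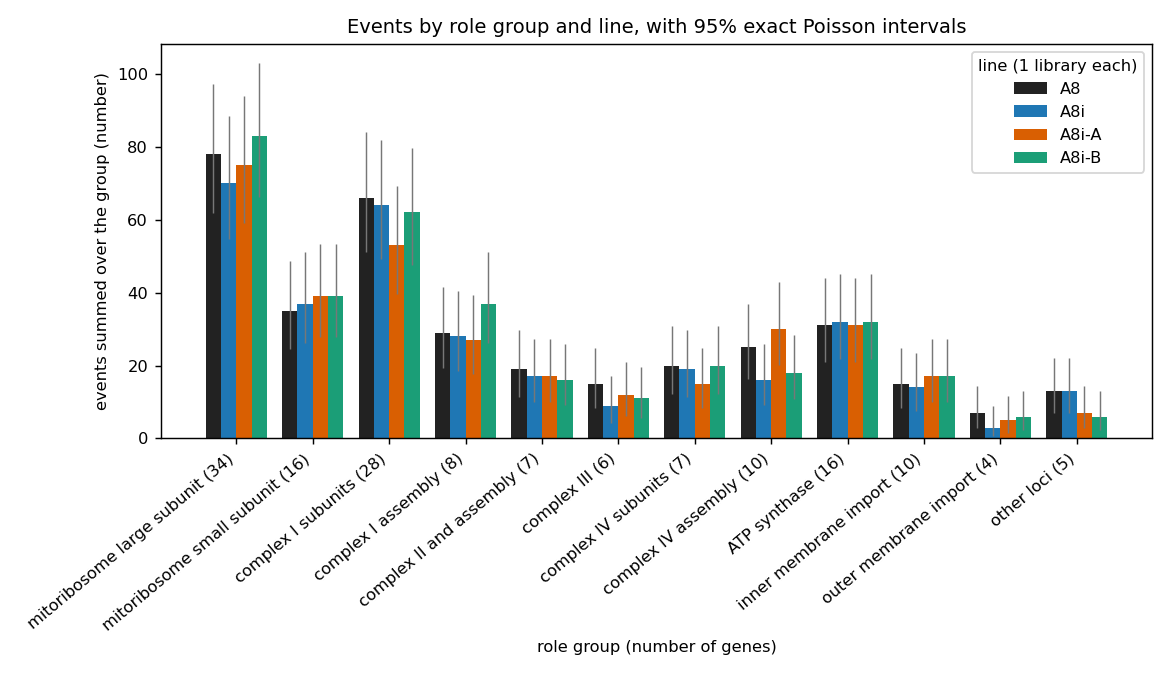
Events summed over each role group in each line, with the number of genes of the group in brackets and 95% exact Poisson intervals for counting error. The intervals of the 4 lines overlap in every group, ATP synthase is level at 31 or 32, and complex IV assembly is at 25, 16, 30 and 18.

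The 5 loci that code for no protein summed to 13, 13, 7 and 6. NDUFA6-AS1, now named NDUFA6-DT (chr22:42486935-42533751, plus strand, GRCh37), is a long noncoding RNA that begins 46 bases from NDUFA6 on the opposite strand. It had 4, 0, 0 and 0 events, so all of its events were in the parental line. With 0 read as 3 and 4 taken as exact, the number in A8i would be 1.33-fold lower. The exact interval of this ratio includes equal numbers. COX10-AS1 had 0, 1, 0 and 0. SDHAP1 and SDHAP2, both pseudogenes of SDHA on chromosome 3, had 5, 8, 4 and 3 and 1, 2, 0 and 1, and were highest in A8i. They share 36.0% of the 50-base windows of SDHAP1 with each other, and 7.01% and 9.32% with SDHA, so their numbers are uncertain where reads could not be placed. MRPS31P4 had 3, 2, 3 and 2.

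**Figure D4:**
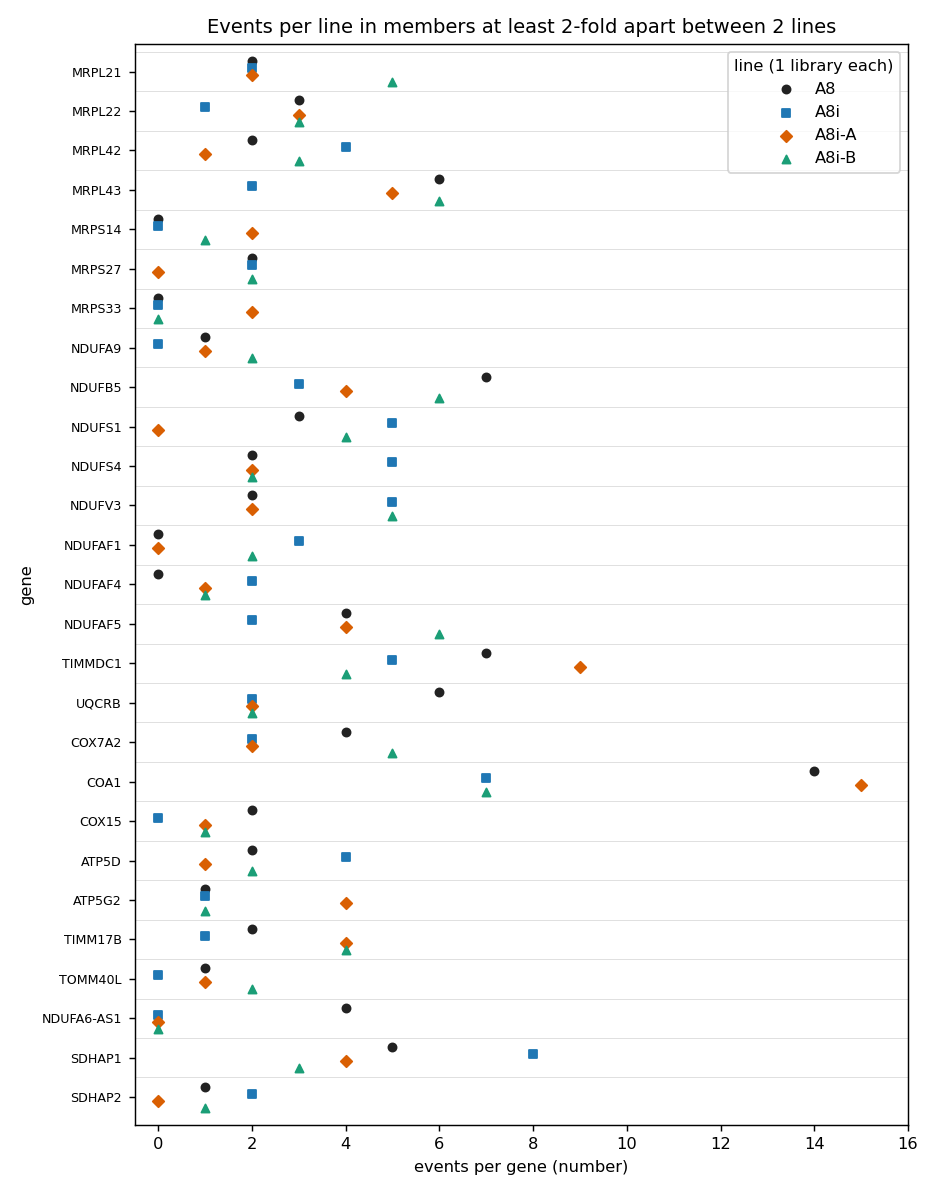
Events per gene in each of the 4 lines for the members with the largest ratios past the fold, up to 10 per comparison, grouped by role from top to bottom. COA1 separates A8 and A8i-A (14 and 15) from A8i and A8i-B (7 and 7), NDUFS1 is at 0 in A8i-A, and most other genes span fewer than 5 events.

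A8 keeps its own ECM1 and A8i-A was given ECM1a, whereas A8i is silenced and A8i-B was given the other isoform. Members that separated these pairs were counted, a split chosen after values had been seen. In 8 members (5.30%, with 7.45% of all genes) both A8 and A8i-A lay above both A8i and A8i-B, namely COA1, TIMMDC1, MRPS23, MRPS28, MRPS31P4, NDUFB4, NDUFS8 and UQCR11. In 8 others (5.30%, with 4.79% of all genes) they lay below, namely COX7C, MRPL42, MRPS25, NDUFAF1, NDUFAF7, NDUFC1, NDUFS1 and NDUFV3. Complex I and its assembly gave 3 of the 8 in the first set and 5 of the 8 in the second, and are 36 of the 151 members. The shares of members in both directions are near those of the table.

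The members are short genes with few exons. The 146 protein-coding members had a median of 7 annotated transcripts, 6 exons in the transcript with the most exons, a longest transcript of 2016 bases and a span of 14377 bases. For the 9050 protein-coding genes of the table the medians were 10 transcripts, 11 exons, 3990 bases and 36252 bases. With the number of exons held in the range 4–6, members had 2.25 events per line on average (74 genes) and all genes 1.70 (1780 genes). At 1–3 exons the means were 0.861 and 0.833, at 7–9 exons 2.57 and 2.30, and at 10 or more 2.83 and 2.74. Across the 146 members, events summed over the lines went with the number of annotated transcripts at a Spearman rho of 0.566, and with the number of exons at 0.335. Across the 9050 genes these were 0.476 and 0.199. These are correlations across genes of the same 4 libraries, and genes are not independent replicates.

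Promoter windows of 300 bases, 250 before and 50 after the annotated start, were at hand from RefSeq on GRCh38.p14 for 126 of the 151 members. They were searched on both strands for GCGCA and GCGC with any 1 base between them, the core of the NRF1 motif, CCGGAAGT, a motif of ETS factors, and AAGATGGC, a motif of YY1. None of the 3 strings contains another, and sites may lie in the same promoter. NRF1 strings occurred in 24 members (19.0%) and in 12.9% of the 7743 genes of the table with a window, ETS strings in 27 (21.4%) and 9.89%, and YY1 strings in 27 (21.4%) and 5.97%. Over all 27305 promoters the shares were 6.28%, 4.44% and 3.03%. At least 1 of the 3 was present in 63 members (50.0%), against 25.8% of the genes of the table. All 4 genes for the outer membrane translocase and all 6 matched genes of complex II had one, and 1 of 7 for complex IV subunits did.

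The following stretches are examples, chosen with the event numbers known. Those shown for the NRF1 motif all belong to members with fewer events in A8i than in A8, and members with unchanged numbers are left out. Each stretch is given 5′ to 3′ on the gene's strand and lies before the start. The motif is in capitals, and a motif on the opposite strand appears as its reverse complement.
COA1, ETS motif, chr7:43729524-43729565, minus strand: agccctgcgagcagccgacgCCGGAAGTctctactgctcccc
TIMMDC1, ETS motif, chr3:119498451-119498498, plus strand: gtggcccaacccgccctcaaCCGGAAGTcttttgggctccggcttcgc
NDUFS1, ETS motif, chr2:206159575-206159622, minus strand: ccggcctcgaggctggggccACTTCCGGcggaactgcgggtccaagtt
NDUFA3, NRF1 motif, chr19:54102762-54102811, plus strand: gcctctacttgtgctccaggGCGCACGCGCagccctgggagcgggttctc
SDHD, NRF1 motif, chr11:112086743-112086792, plus strand: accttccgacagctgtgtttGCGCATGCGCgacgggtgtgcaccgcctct
UQCRC1, NRF1 motif, chr3:48609664-48609713, minus strand: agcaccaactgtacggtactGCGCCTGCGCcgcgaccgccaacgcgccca
MRPL52, YY1 motif, chr14:22829769-22829816, plus strand: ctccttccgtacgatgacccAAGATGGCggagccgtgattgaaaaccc
NDUFA6-AS1, YY1 motif, chr22:42090720-42090767, plus strand: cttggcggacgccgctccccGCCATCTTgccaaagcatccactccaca
COA1 and NDUFS1, both with an ETS string, had 15 and 0 events in A8i-A. Both were picked by their event numbers, and a link between the string and the events was not tested.

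Members with an NRF1 string had 47, 29, 44 and 40 events in sum, and the 102 members without one 231, 231, 229 and 239. None of the 24 had more events in A8i than in A8, 11 had fewer (45.8%) and 13 the same number, while of the 1001 genes of the table with the string 19.6% had more and 41.2% had fewer. The 11 were NDUFA3 (8 and 4 events in A8 and A8i), NDUFAF5 (4 and 2), SDHAF3, SDHD and TOMM40 (3 and 1 each), NDUFA12, UQCR11 and UQCRC1 (2 and 1 each) and NDUFA9, NDUFB4 and TOMM20 (1 and 0 each), so that 6 of them differed by 1 event. In A8i-A 12 of the 24 had more events than in A8i and none fewer, with 35.8% and 23.5% of the table's genes with the string. In A8i-B 9 had more (37.5%) and 1 fewer, with 40.5% and 21.1% of those genes. The sum in A8i was 61.7% of that in A8 (37.5–100%), and 64.1% (37.2–109%) without NDUFA3. As a ratio of shares of all events it was 73.7%.

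Over the whole table, the 1001 genes with an NRF1 string had 84.9% of their A8 events in A8i (80.3–89.7%) and the 6742 without one 84.4% (82.5–86.3%). The absence of higher numbers in A8i among the members with the string was singled out of 3 motifs after the values had been seen, 1 library stands behind each line, and the comparisons of A8i-A and A8i-B with A8i share the A8i library with it. Members with an ETS string (61, 53, 64 and 55 events) or a YY1 string (55, 49, 49 and 54) had sums in A8i at 86.9% (59.0–128%) and 89.1% (59.4–133%) of A8. A match of letters is a description of the window and not a bound site.

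Partners of these complexes whose symbols fall outside the rule were taken from 3 lists of 108 symbols, of which 80 are in the table. Their sums were 213, 195, 211 and 228 events. In A8i against A8, 8 were past the fold upwards and 8 downwards (10.0% each, with 8.62% and 20.2% of all genes). The counts were 8 and 7 for A8i-A against A8i (10.0% and 8.75%, with 18.1% and 11.1% of all genes) and 6 and 4 for A8i-B against A8i (7.50% and 5.00%, with 20.4% and 9.21%). For A8i-A against A8i-B they were 6 and 11 (7.50% and 13.8%, with 11.7% and 16.2%). The 22 genes of mitochondrial translation, such as elongation factors, differed least, with sums of 73, 71, 69 and 71. The 35 partners and assembly factors of the chain summed to 96, 80, 100 and 99. SURF1, a complex IV assembly factor, had 2, 0, 5 and 3, and COQ9, of ubiquinone synthesis, had 3, 0, 2 and 3, so both were listed at 0 in A8i alone. ATPAF2, an assembly factor of ATP synthase, had 0, 2, 0 and 1, the reverse order. LYRM7, a complex III assembly factor, had 0, 1, 0 and 2, and COQ2 had 1, 1, 1 and 0.

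The 23 import partners summed to 44, 44, 42 and 58 and were highest in A8i-B. IMMP1L, a subunit of the inner membrane peptidase, had 3, 2, 2 and 8, and SPG7, a subunit of the m-AAA protease, had 4, 1, 2 and 7. These 2 genes held 12 of the net 14 events by which A8i-B exceeded A8i. The subunits of the matrix processing peptidase went different ways, with PMPCA at 0, 2, 3 and 1 and PMPCB at 2, 2, 2 and 0, and OMA1, a stress-activated protease, had 2, 1, 0 and 1.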

How the data were processed

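Total RNA of the 4 lines was isolated with TRIzol and sequenced as 1 library per line on an Illumina instrument. By the study's methods the authors trimmed reads with Trim Galore, checked them with FastQC, mapped them to hg19 with TopHat and used Cufflinks, for which the submitters' processing notes give version 2.2.1. These notes name the build GRCm38, a mouse assembly, so that labels and methods differ. The deposited values are event counts per gene, whole numbers from 0 to 32 that the authors did not scale as far as the values show. The program and kind of event are not given in the sources used here, and the number of reads behind each value is unknown. Table totals ran from 20535 to 24513 events. No column of per-sample values was left unused.

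The members and gene lists were chosen with earlier results of these data known. Lines were compared as ratios of summed events with 95% exact Clopper-Pearson intervals for counting error only, with events treated as independent, and per gene as log2 of (events + 1) in the first line over (events + 1) in the second, so that changes at low numbers come out too small. At least 2-fold on this scale counted as past the fold. A value of 0 was read as at most 3 events where a fold is given, with the other count taken as exact. With 1 library per line no test of conditions was made. The fold calls and the intervals of large sums were checked on simulated numbers with known changes. These changes were planted only in genes with more events than the average member, so recovery at low numbers was not checked. The promoter, gene model and near-copy steps were not part of this check. Role groups followed the symbols. The genes named are the 2 members with the most events per role group, up to 10 members past the fold per comparison, those at 0 in 1 line with at least 2 events in each other line, every locus that codes for no protein, and the 2 highest and 2 lowest partner genes per comparison. Members named beside them, the even genes, those of the split by ECM1a and those with an NRF1 motif were chosen after their values were seen. The values of 1 gene that this rule names are not reported here on their own.

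Gene models came from GENCODE release 44 lifted to GRCh37, joined by Ensembl identifier, which matched 9818 of 9885 genes and all 151 members, of which 19 carry an older symbol than the annotation. Promoters came from RefSeq on GRCh38.p14 and were joined through the current symbol. Near copies were sought as shared 50-base windows of annotated transcripts. Alternatives covered the share of the line's total, the pseudocount, scaling, filters on low values and left-out genes or lines. Python 3.11.15 was used with numpy 2.4.6, pandas 2.3.3, scipy 1.17.1 and matplotlib 3.10.9.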

Additional observations from a re-analysis of the deposited data

How the results depend on the processing

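As a share of all events of the line, the members' ratio crossed 100% in all 4 comparisons, at 109% in place of 91.2% for A8i over A8, 92.2% in place of 102% for A8i-A over A8i, 91.3% in place of 108% for A8i-B over A8i and 101% in place of 94.5% for A8i-A over A8i-B. That of A8i-A over A8i also crossed it without the 5 members with the most events (97.9%) and without COA1 (99.4%). After scaling to the mean library total, 5 members were past the fold downwards in A8i against A8, 5 upwards in A8i-B against A8i and 3 downwards in A8i-A against A8i-B. In the order A8i over A8, A8i-A over A8i, A8i-B over A8i and A8i-A over A8i-B, members with an event in all 4 lines gave 5, 7, 7 and 5 higher and 9, 7, 4 and 6 lower, and members with at least 4 events in sum gave 7, 10, 10 and 5 higher and 13, 11, 4 and 10 lower. A difference of at least 2 events gave 7, 9, 9 and 6 higher and 11, 11, 4 and 9 lower. These filters leave fewer genes to count. A pseudocount of 0.1 in place of 1 cannot change a 2-fold call between whole numbers. That all 8 counts stayed as they were is therefore no check of them. At least 2 events were listed for 81, 76, 78 and 81 members. No paired analysis was possible because each line has 1 library and the result comes from no test. With about 2 events per gene and line, the exact intervals of single members are wide. They treat events as independent, which was not tested, so no smallest detectable change is given.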
